A study of Mus musculus with 8 samples.

Results

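The glycolysis and hypoxia response genes are a set of 36 mouse genes followed here across 4 genotypes of embryonic stem (ES) cells. They were chosen by name, by what the genes are known to do and with earlier results of these data known, out of the 48440 genes of the count files, and their Ensembl identifiers were mapped to symbols with the GENCODE M21 annotation. By role they are 4 transporters, 17 glycolytic enzymes, 3 regulators of flux and 12 genes of oxygen sensing and its targets. All 36 were among the 17049 genes that passed the filter on low counts, and none was near it except *Adm* and *Ankrd37*, whose lowest libraries were at 1.13 and 1.14 CPM, read counts scaled to library size. The 8 RNA sequencing libraries came in pairs from wild-type (WT) cells, from cells lacking exon 6 of *Tbxt* on both alleles (*Tbxt* delE6/delE6) or on 1 allele (*Tbxt* delE6/+), and from cells with an insertion in *Tbxt* (*Tbxt* Insert ASAY). *Tbxt* encodes Brachyury, a transcription factor of the primitive streak and the notochord, and ASAY stands for the human AluSx1 and AluY elements, which the study placed on either side of exon 6 on both alleles. All the lines derive from the MK6 ES line of C57BL/6J mice and were collected on day 1 of differentiation, after treatment with CHIR99021, which activates Wnt signalling, in N2/B27 medium without LIF. The delE6/delE6 libraries come from different clones, whereas the clonal origin of the other pairs is not given in the sources used here. The exon deletions were made without feeder cells, while the insertion was made on feeder cells with a drug selection marker that Cre recombinase later removed, so the edited allele and the history of a line cannot be told apart.

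Glycolysis splits glucose to pyruvate in the cytosol, and lactate dehydrogenase turns pyruvate to lactate, which monocarboxylate transporters carry out of the cell. When oxygen falls, prolyl hydroxylases of the EGLN family stop marking the HIF alpha subunits for destruction, and HIF then binds DNA at short elements and raises the transcription of many glucose transporters, glycolytic enzymes and stress genes. Pluripotent mouse ES cells are known for a high rate of glycolysis also in the presence of oxygen, and the make-up of their metabolism changes as they leave the naive state.

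Each library held 24618587 to 28445952 reads on genes, and libraries of a pair correlated at 0.995 to 0.998 over log2 CPM. The delE6/delE6 clones stood apart from each other more than the other pairs did, with a chi-square per degree of freedom over genes of 10.9 against 2.75 to 3.39. *Tbxt* itself had 47 and 42 reads in WT, 26 and 22 in delE6/delE6, 30 and 29 in Insert ASAY and 39 and 54 in delE6/+ libraries, and gene counts do not tell the isoforms apart, so they check the labels only loosely. The labelled cell type was borne out by 10 pluripotent cell markers, none at 0 in any library, whose summed level was 1432 to 1502 CPM in WT, 924 to 1076 in delE6/delE6, 1106 to 1153 in Insert ASAY and 1141 to 1190 in delE6/+ libraries. *Dppa5a* carried much of that difference, at 561 and 528 CPM in WT and 170 to 288 in the mutant libraries. Not all of these markers fell. *Lin28a* was at 298 and 285 CPM in WT and 371 to 537 in the mutant libraries. *Sox2* was at 71.2 and 66.2 CPM in WT and 117 and 109 in delE6/+ libraries, and *Zfp42* was above WT in delE6/delE6 and Insert ASAY libraries. The 8 neural markers summed to 134 to 135 CPM in WT, 188 to 238 in delE6/delE6, 157 to 171 in Insert ASAY and 126 in both delE6/+ libraries. *Nes* and *Tubb3* carried most of that sum, and *Sox1* went another way, at 6.32 and 5.36 CPM in WT and 24.5 and 23.6 in delE6/+ libraries, as did *Pax6*, at 3.0 and 2.1 CPM in WT and 6.7 and 5.9 in delE6/+ libraries. The 10 fibroblast markers summed to 32.3 to 36.2 CPM in WT, 22.6 to 24.8 in delE6/delE6, 18.4 to 19.4 in Insert ASAY and 36.5 to 36.8 in delE6/+ libraries. For 10 primitive streak markers the sums were 18.2 and 20.0 CPM in WT, 24.7 and 24.5 in delE6/delE6, 18.6 and 21.9 in Insert ASAY and 12.8 and 15.0 in delE6/+ libraries. *Eomes* was the largest part of each of these sums. *Fgf8* went another way, at 1.55 and 1.27 CPM in WT and 2.46 and 2.82 in delE6/+ libraries. The 7 primitive endoderm markers summed to 23.8 and 23.1 CPM in WT, 18.4 and 15.1 in delE6/delE6, 20.3 and 17.9 in Insert ASAY and 27.0 and 26.9 in delE6/+ libraries. The part that these shifts in markers have in the differences below was not tested. In bulk RNA, fewer cells that express a gene and less of its RNA per cell cannot be told apart.

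HIF binds the core letters ACGTG or GCGTG, and the bases ahead of the start of each member were searched for them on both strands. RefSeq promoters on GRCm38.p6 were given for 34 of the 36 members and not for *Slc2a3* and *Ndrg1*, and the first start listed was used for each gene. Several starts were listed for 11 members, and the others of these were not searched. Of the 34, 26 (76.5%) held a core in the 250 bases before the start, against 56.1% of 11560 tested genes and 38.6% of all 27025 genes with a promoter in the table. For ACGTG alone it was 17 members (50.0%), 21.6% and 16.6%. ACGTG also lies within the E-box CACGTG, which MYC and other factors bind, and a match of 5 letters does not make a binding site. The runs shown are those of the members that rose in delE6/delE6 cells and that hold a core, cut where an annotated exon begins and printed from 5′ to 3′ on the strand of the gene, with core letters of either strand in capitals. They lie at chr7:46845554-46845803 (plus strand) for *Ldha*, chr7:138909520-138909756 (minus strand) for *Bnip3*, chr2:71872974-71873223 (plus strand) for *Pdk1*, chr11:120948817-120949052 (plus strand) for *Slc16a3*, chr4:119108495-119108710 (plus strand) for *Slc2a1* and chr8:124949325-124949504 (minus strand) for *Egln1*.
Ldha: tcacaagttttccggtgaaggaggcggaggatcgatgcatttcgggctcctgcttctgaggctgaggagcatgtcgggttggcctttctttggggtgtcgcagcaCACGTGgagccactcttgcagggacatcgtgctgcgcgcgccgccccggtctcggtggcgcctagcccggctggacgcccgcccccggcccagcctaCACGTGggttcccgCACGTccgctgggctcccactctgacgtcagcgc
Bnip3: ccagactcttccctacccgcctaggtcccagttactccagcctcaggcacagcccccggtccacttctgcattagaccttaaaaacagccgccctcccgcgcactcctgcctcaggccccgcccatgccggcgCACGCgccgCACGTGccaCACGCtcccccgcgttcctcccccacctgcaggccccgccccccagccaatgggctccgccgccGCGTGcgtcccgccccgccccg
Pdk1: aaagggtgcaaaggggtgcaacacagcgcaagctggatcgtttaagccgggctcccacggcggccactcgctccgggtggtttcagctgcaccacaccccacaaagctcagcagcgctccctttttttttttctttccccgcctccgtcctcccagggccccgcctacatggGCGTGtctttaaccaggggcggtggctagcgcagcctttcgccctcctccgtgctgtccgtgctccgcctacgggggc
Slc16a3: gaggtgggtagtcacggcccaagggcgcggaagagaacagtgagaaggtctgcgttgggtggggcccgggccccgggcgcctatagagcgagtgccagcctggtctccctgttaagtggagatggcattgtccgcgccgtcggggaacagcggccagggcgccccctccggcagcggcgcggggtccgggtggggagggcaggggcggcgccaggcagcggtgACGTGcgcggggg
Slc2a1: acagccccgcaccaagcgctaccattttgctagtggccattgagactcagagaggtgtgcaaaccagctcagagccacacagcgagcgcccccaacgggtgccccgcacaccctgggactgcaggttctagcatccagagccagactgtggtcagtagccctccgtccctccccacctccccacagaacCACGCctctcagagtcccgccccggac
Egln1: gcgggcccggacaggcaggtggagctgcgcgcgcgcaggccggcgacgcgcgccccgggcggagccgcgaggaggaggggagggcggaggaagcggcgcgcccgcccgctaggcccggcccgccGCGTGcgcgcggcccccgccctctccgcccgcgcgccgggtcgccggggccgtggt
The *Ldha* run holds 3 separate stretches with a core, of which 2 are also an E-box, and the *Bnip3* run holds 4, of which 1 is. The other runs hold 1 stretch each. The annotated genes of *Ldha* (from 46841475) and *Slc16a3* (from 120948480) begin farther upstream, so these runs lie inside them, ahead of a later start. *Tpi1*, the remaining member that rose, holds none in its 250 bases, and *Slc16a3* and *Egln1* have 1 more each inside the exon that follows, while 1 more of *Slc2a1* crosses the start of its exon. Of the members that fell in the same comparison, *Adm* holds 2 stretches and *Pfkm* 1, which is an E-box, and *Eno2* holds none. Cores thus stood before genes that rose, genes that fell and genes that were not called.

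The first comparison asks how cells that make only the *Tbxt* transcript without exon 6 differ from WT. In delE6/delE6 cells, 7 members rose and 4 fell. Those that rose were the enzymes *Ldha* and *Tpi1*, the kinase *Pdk1*, the transporters *Slc2a1* and *Slc16a3*, and the HIF targets *Bnip3* and *Egln1*. Those that fell were the glucose transporter *Slc2a3*, the enzymes *Pfkm* and *Eno2*, and *Adm*. A gene was called changed at an adjusted p under 0.05 (edgeR quasi-likelihood test, Benjamini-Hochberg over 17049 genes) and a log2 fold change past 0.5, and 12.7% of all tested genes were so called, 6.12% higher and 6.59% lower. Without the fold threshold, 19 members were higher and 6 lower, against 18.3% and 17.1% of all tested genes. The median log2 fold change was 0.23 over the members and -0.0096 over all tested genes.

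These calls lean on the second clone. Replicate 2 lay farther from the WT mean than replicate 1 in 27 of the 36 members and in all 11 called members. Without replicate 2, 5 members were called (*Slc2a1*, *Slc16a3*, *Ldha*, *Pdk1* and *Bnip3*) with 6.53% of all genes, and without replicate 1, 15 members with 19.2% of all genes. In these fits, and in each fit that leaves out a library, the group has 1 library left, which is assumed to vary like the other groups. *Bnip3* was 0.59 above the WT mean on the log2 scale in replicate 1 and 1.34 in replicate 2, *Slc16a3* 0.52 and 1.27, and *Adm* -0.25 and -1.30.

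**Figure D1:**
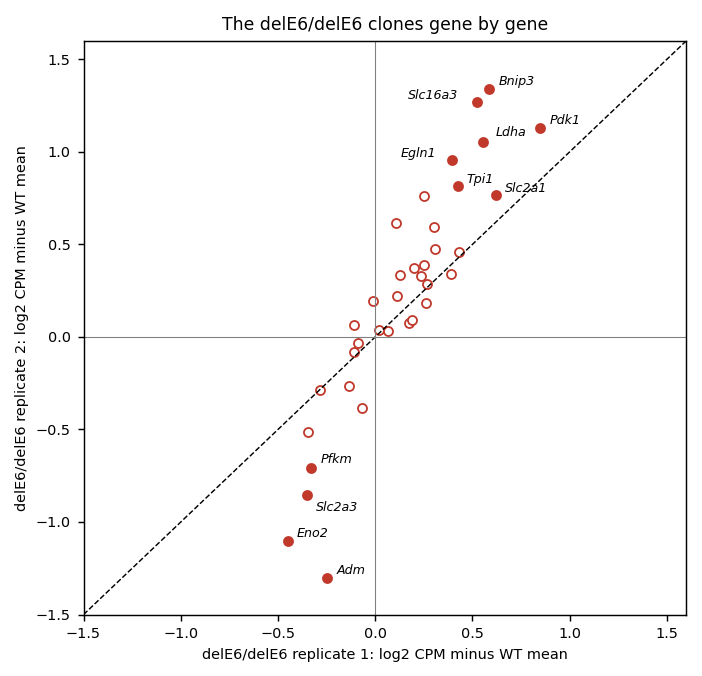
Each point is 1 of the 36 genes, placed by its log2 CPM minus the WT mean in delE6/delE6 replicate 1 (x axis) and replicate 2 (y axis). Filled points are the 11 called members, and all 11 lie farther from 0 on the y axis than on the x axis, which the dashed line of equal values shows.

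In Insert ASAY cells, the comparison with WT asks what the insertion does while full-length *Tbxt* can still be made. Here 9 members rose and 6 fell, against 21.3% of all tested genes called, 11.5% higher and 9.85% lower. The members that rose were *Slc16a3*, *Tpi1*, *Eno1*, *Ldha*, *Pdk1*, *Bnip3*, *Egln1*, *Egln3* and *Ankrd37*, and those that fell were *Slc2a3*, *Hk1*, *Pfkm*, *Eno2*, *Pfkfb3* and *Adm*. Without the fold threshold, 19 members were higher and 13 lower, against 23.2% and 24.1% of all tested genes, and all 17 glycolytic enzymes passed, 11 higher and 6 lower. The smallest of these changes was that of *Gpi1* (log2 0.19), at a mean of 814 CPM in WT. The adjusted p alone passes smaller changes in genes with more reads, so this count depends on level too. The median log2 fold change was 0.26 over the members and -0.0051 over all tested genes.

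The comparison of delE6/+ cells with WT asks what loss of exon 6 on 1 allele does, and 4 members rose and 3 fell, against 13.5% of all tested genes called, 6.60% higher and 6.89% lower. The glucose transporters *Slc2a1* and *Slc2a3*, the monocarboxylate transporter *Slc16a1* and *Ldhb* rose, and *Pfkfb3*, *Adm* and *Ndrg1* fell. Without the fold threshold, 10 members were higher and 8 lower, against 15.4% and 16.2% of all tested genes. The median log2 fold change was -0.0092 over the members and -0.00059 over all tested genes. The comparisons against WT use the same WT libraries, so their values are given side by side with no measure of likeness between them.

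**Figure D2:**
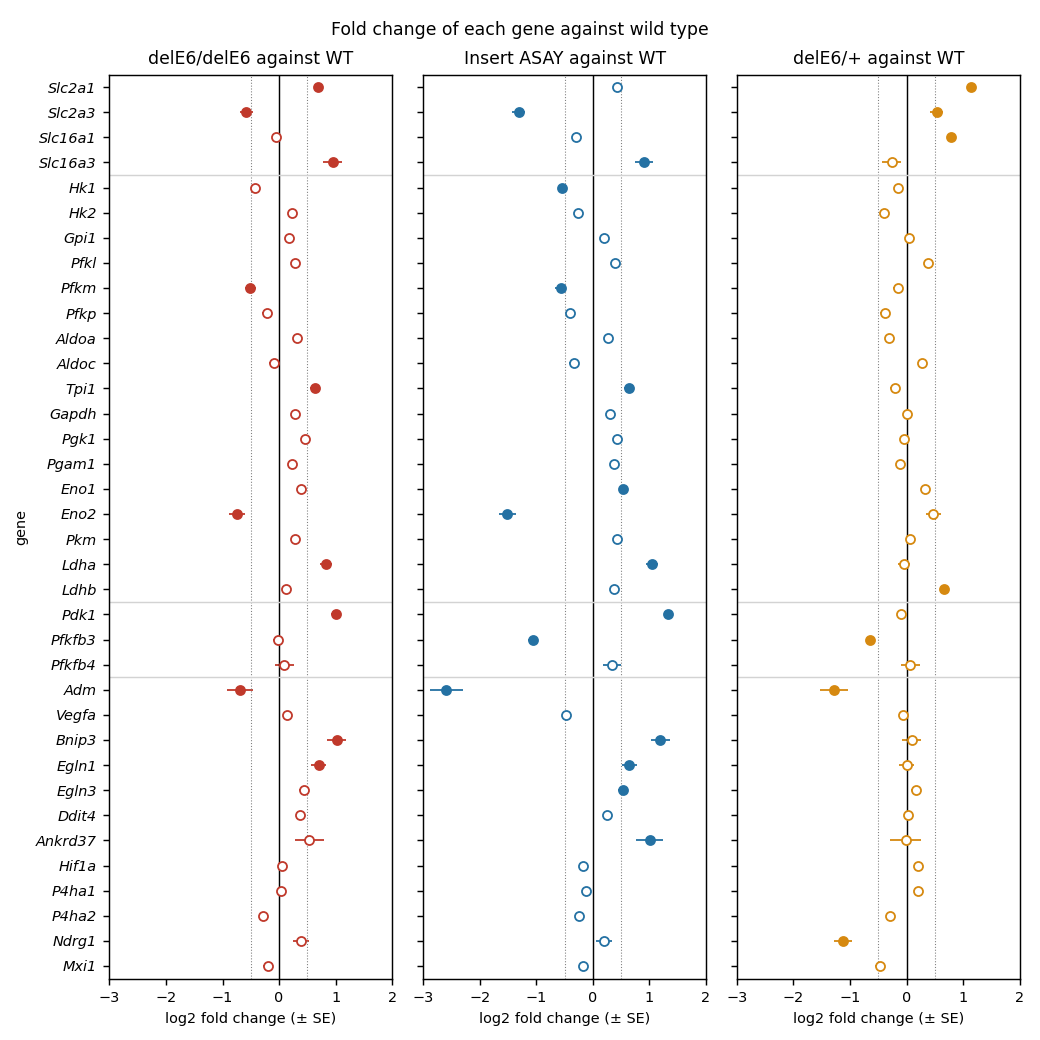
The log2 fold change of each of the 36 genes against WT with its SE, in delE6/delE6, Insert ASAY and delE6/+ cells, with genes ordered by role. Filled points passed both thresholds (11, 15 and 7 genes), open points did not, and dotted lines mark 0.5 in either direction.

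Of the transporters, *Slc2a1* (GLUT1), the general glucose carrier, was at 493 and 480.2 CPM in WT, 749 and 826 in delE6/delE6, 652 and 657 in Insert ASAY and 1051 and 1087 in delE6/+ libraries. All mutant libraries lay above both WT libraries. It rose 1.62-fold in delE6/delE6 (log2 0.70, SE 0.050, adjusted p = 5.47e-06) and 2.20-fold in delE6/+ cells (log2 1.14, SE 0.050, adjusted p = 1.64e-08), and its log2 fold change of 0.43 in Insert ASAY cells passed the adjusted p alone. *Slc2a3* (GLUT3), a high-affinity carrier typical of early embryos and neurons, was at 1619 and 1600.5 CPM in WT, 1262 and 890.1 in delE6/delE6, 615 and 680.2 in Insert ASAY and 2247 and 2398 in delE6/+ libraries. The delE6/+ libraries were the highest of the 8 and the Insert ASAY libraries the lowest, with no overlap between groups. The gene fell to 0.402 of WT in Insert ASAY cells (log2 -1.31, SE 0.11, adjusted p = 3.97e-06), fell by 0.58 on the log2 scale in delE6/delE6 cells, a call lost without replicate 2 (log2 -0.35), and rose 1.44-fold in delE6/+ cells (log2 0.53, SE 0.11, adjusted p = 0.00278), a call that was lost without delE6/+ replicate 2 (log2 0.48).

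The monocarboxylate transporters carry lactate and pyruvate. *Slc16a3* (MCT4), the exporter of glycolytic cells and a HIF target, was at 86.0 and 89.7 CPM in WT, 126 and 211 in delE6/delE6, 163 and 166 in Insert ASAY and 67.6 and 78.8 in delE6/+ libraries. It rose 1.92-fold in delE6/delE6 cells (log2 0.94, SE 0.16, adjusted p = 0.000911) and 1.87-fold in Insert ASAY cells (log2 0.90), and it was 0.26 lower in delE6/+ cells (adjusted p = 0.26). *Slc16a1* (MCT1), which works in both directions, was at 316 and 331 CPM in WT, 304 and 316 in delE6/delE6, 261 and 264 in Insert ASAY and 537 and 569.6 in delE6/+ libraries. Only the delE6/+ libraries stood above WT, and the gene rose 1.71-fold there (log2 0.78, SE 0.047, adjusted p = 1.82e-07). *Slc16a1* is the only member on chromosome 3, where the median log2 fold change of 848 tested genes in delE6/+ cells was 0.32. The 108 tested genes within 5 Mb of it on either side had a median of 0.49 there, 92 of them were above 0 and 25 rose more than *Slc16a1*, while the same neighbours had medians of 0.053 and 0.028 in delE6/delE6 and Insert ASAY cells. The part of the chromosome in this result was not tested. Of the 35 members elsewhere, 6 were called in delE6/+ cells. Summed over the 4 transporters, the level was 2514 and 2501 CPM in WT, 2441 and 2244 in delE6/delE6, 1691 and 1767 in Insert ASAY and 3903 and 4133 in delE6/+ libraries.

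**Figure D3:**
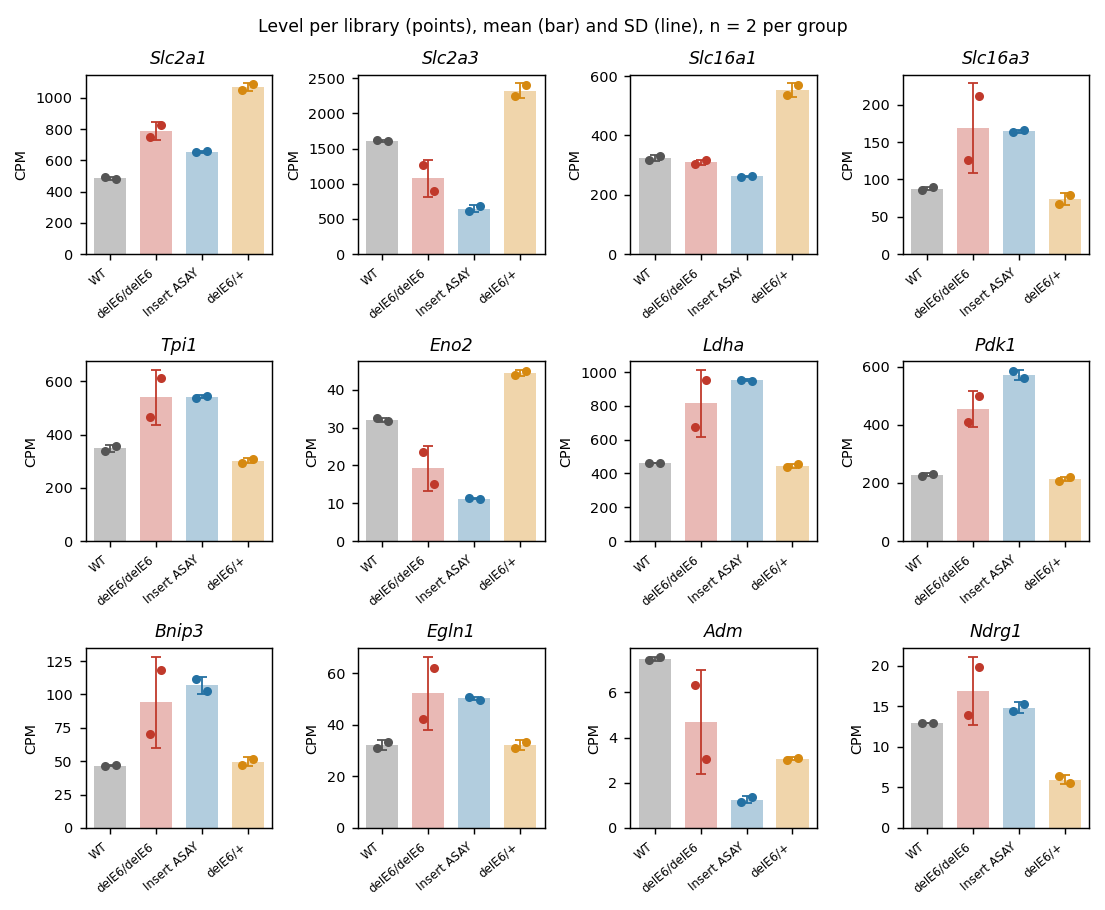
CPM of 12 of the genes in each library (points), with the mean (bar) and SD (line) of the pair, on axes that start at 0. *Slc2a3* and *Slc16a1* are highest in delE6/+ cells, *Ldha*, *Pdk1* and *Bnip3* are highest in Insert ASAY and delE6/delE6 cells, and the delE6/delE6 points lie farther apart than those of the other pairs in most panels.

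The glycolytic enzymes took 1.23 to 1.26% of all reads on genes in WT, 1.51 and 1.69% in delE6/delE6, 1.72 and 1.74% in Insert ASAY and 1.32 and 1.30% in delE6/+ libraries. Per kilobase of exon, their highest levels in WT were those of *Gapdh* (655 RPKM), *Aldoa* (631), *Pkm* (487) and *Eno1* (469). Reads that match several places were not counted, so the levels of enzymes with near-identical copies in the genome (*Gapdh*, *Pgk1*, *Pgam1*, *Aldoa*, *Eno1* and *Ldha*) are uncertain. The named copies of *Pgam1* held 2.8 to 4.0% as many reads as the gene itself, and those of the other 5 genes at most 0.887%.

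Glycolysis opens with steps that spend ATP to make triose phosphates, and the hexokinases phosphorylate glucose at the entry. *Hk1* was at 72.9 and 74.1 CPM in WT, 57.9 and 51.5 in delE6/delE6, 50.7 and 50.5 in Insert ASAY and 64.2 and 68.3 in delE6/+ libraries, and it fell in Insert ASAY cells (log2 -0.54, SE 0.064, adjusted p = 2.95e-05). *Hk2*, the form that HIF and insulin regulate, did not pass both thresholds against WT, with log2 fold changes of 0.22 in delE6/delE6, -0.27 in Insert ASAY and -0.40 in delE6/+ cells. *Gpi1*, which turns glucose phosphate to fructose phosphate, lay between 0.05 and 0.19 in the same comparisons.

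Phosphofructokinase sets the pace of the pathway, and its genes went different ways. *Pfkm*, the muscle form, was at 104 and 107 CPM in WT, 84.1 and 64.6 in delE6/delE6, 68.8 and 73.3 in Insert ASAY and 91.1 and 98.8 in delE6/+ libraries. It fell in delE6/delE6 (log2 -0.51, SE 0.092, adjusted p = 0.0013) and in Insert ASAY cells (log2 -0.57). The first of these calls was lost with DESeq2 (log2 -0.49), and 341 of the 3340 exon bases of *Pfkm* are shared with *Gm26513* on the same strand. *Pfkl*, the liver form, had log2 fold changes of 0.28, 0.40 and 0.38 and *Pfkp*, the platelet form, of -0.22, -0.40 and -0.39 in delE6/delE6, Insert ASAY and delE6/+ cells, and neither was called. The aldolases split fructose bisphosphate. *Aldoa* had log2 fold changes of 0.32, 0.28 and -0.32 and *Aldoc* of -0.10, -0.34 and 0.27 in that order, and neither was called. Triose phosphate isomerase, *Tpi1*, was at 339 and 358 CPM in WT, 467 and 613 in delE6/delE6, 538 and 546 in Insert ASAY and 294 and 308 in delE6/+ libraries. It rose 1.55-fold in delE6/delE6 cells (log2 0.63, SE 0.089, adjusted p = 0.000292) and 1.56-fold in Insert ASAY cells (log2 0.64).

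The later steps yield ATP and NADH. *Gapdh*, *Pgk1*, *Pgam1* and *Pkm* had log2 fold changes of 0.23 to 0.45 in delE6/delE6 cells and of 0.29 to 0.43 in Insert ASAY cells, all past the adjusted p alone, and of -0.11 to 0.06 in delE6/+ cells, none past it. *Eno1*, the common enolase, was at 2516 and 2531 CPM in WT, 3117 and 3507 in delE6/delE6, 3646 and 3684 in Insert ASAY and 3206 and 3111 in delE6/+ libraries, and it rose in Insert ASAY cells (log2 0.54, SE 0.051, adjusted p = 6.75e-06). *Eno2*, the neuronal enolase, was at 32.5 and 31.7 CPM in WT, 23.5 and 15.0 in delE6/delE6, 11.3 and 11.2 in Insert ASAY and 43.8 and 45.0 in delE6/+ libraries. It fell to 0.350 of WT in Insert ASAY cells (log2 -1.51, SE 0.15, adjusted p = 8.57e-06) and by 0.75 on the log2 scale in delE6/delE6 cells, and its log2 fold change of 0.47 in delE6/+ cells passed the adjusted p alone.

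Lactate dehydrogenase joins pyruvate and lactate, with the A subunit favouring lactate. *Ldha* was at 459.6 and 459.7 CPM in WT, 674 and 954 in delE6/delE6, 955 and 947 in Insert ASAY and 436 and 453 in delE6/+ libraries. The delE6/delE6 and Insert ASAY libraries all lay above WT, and both delE6/+ libraries lay just under it. *Ldha* rose 1.77-fold in delE6/delE6 cells (log2 0.82, SE 0.11, adjusted p = 0.000184) and 2.07-fold in Insert ASAY cells (log2 1.05, SE 0.11, adjusted p = 1.14e-05). *Ldhb* was at 123 and 116 CPM in WT, 135 and 126 in delE6/delE6, 151 and 157 in Insert ASAY and 188 in both delE6/+ libraries. It rose 1.57-fold in delE6/+ cells (log2 0.66, SE 0.050, adjusted p = 1.01e-06).

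Among the regulators of flux, *Pdk1*, the kinase that keeps pyruvate from being turned to acetyl-CoA by blocking pyruvate dehydrogenase, was at 224 and 231 CPM in WT, 409.8 and 498 in delE6/delE6, 584 and 560.2 in Insert ASAY and 208 and 219 in delE6/+ libraries. It rose 2.00-fold in delE6/delE6 (log2 1.00, SE 0.073, adjusted p = 5.47e-06) and 2.51-fold in Insert ASAY cells (log2 1.33, SE 0.073, adjusted p = 4.69e-07), and its log2 fold change in delE6/+ cells was -0.093 (adjusted p = 0.367). The bifunctional enzyme *Pfkfb3*, which makes the activator of phosphofructokinase, was at 50.3 and 53.9 CPM in WT, 48.3 and 54.5 in delE6/delE6, 23.3 and 26.8 in Insert ASAY and 34.4 and 32.5 in delE6/+ libraries. It fell to 0.481 of WT in Insert ASAY (log2 -1.06, SE 0.084, adjusted p = 2.68e-06) and to 0.642 in delE6/+ cells (log2 -0.64, SE 0.083, adjusted p = 7.62e-05). Its relative *Pfkfb4* lay between 3.76 and 5.43 CPM in all libraries and was not called.

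Of the genes of oxygen sensing, *Hif1a*, the HIF subunit that oxygen controls through its protein, was between 194 and 257 CPM, with log2 fold changes of 0.048 in delE6/delE6, -0.17 in Insert ASAY and 0.19 in delE6/+ cells. The prolyl hydroxylases that mark it are themselves HIF targets. *Egln1* was at 30.9 and 33.3 CPM in WT, 42.1 and 62.1 in delE6/delE6, 50.6 and 49.6 in Insert ASAY and 30.8 and 33.4 in delE6/+ libraries, and it rose 1.63-fold in delE6/delE6 (log2 0.70, SE 0.13, adjusted p = 0.00159) and 1.56-fold in Insert ASAY cells (log2 0.64). *Egln3* was at 12.7 and 11.6 CPM in WT, 16.4 and 16.7 in delE6/delE6, 17.5 and 17.8 in Insert ASAY and 13.3 and 14.1 in delE6/+ libraries, and it rose in Insert ASAY cells (log2 0.54), a call lost without WT replicate 2 (log2 0.47).

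The HIF targets outside metabolism did not move as a block. *Bnip3*, which directs mitochondria to autophagy, was at 46.3 and 47.1 CPM in WT, 70.2 and 118 in delE6/delE6, 111 and 102 in Insert ASAY and 47.4 and 51.9 in delE6/+ libraries. It rose 2.02-fold in delE6/delE6 (log2 1.02, SE 0.16, adjusted p = 0.000648) and 2.29-fold in Insert ASAY cells (log2 1.19). *Ankrd37*, a small ankyrin repeat gene, was at 1.34 and 1.53 CPM in WT, 1.70 and 2.42 in delE6/delE6, 3.17 and 2.56 in Insert ASAY and 1.67 and 1.14 in delE6/+ libraries, and it rose in Insert ASAY cells (log2 1.00), a call lost without Insert ASAY replicate 1 (log2 0.84).

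*Adm*, the secreted vasodilator adrenomedullin, went the other way. It was at 7.44 and 7.55 CPM in WT, 6.32 and 3.04 in delE6/delE6, 1.13 and 1.35 in Insert ASAY and 3.03 and 3.11 in delE6/+ libraries, so that both WT libraries were above all others. It fell to 0.166 of WT in Insert ASAY (log2 -2.59, SE 0.29, adjusted p = 1.87e-05) and to 0.410 in delE6/+ cells (log2 -1.29, SE 0.25, adjusted p = 0.00159). In delE6/delE6 cells it fell by 0.69 on the log2 scale, a call that DESeq2 did not make (log2 -0.67) and that was lost without replicate 2 (log2 -0.25). *Ndrg1*, a stress-response gene, was at 13.0 CPM in both WT libraries, 13.9 and 19.9 in delE6/delE6, 14.4 and 15.3 in Insert ASAY and 6.36 and 5.56 in delE6/+ libraries, and it fell to 0.461 of WT in delE6/+ cells (log2 -1.12, SE 0.16, adjusted p = 0.000157).

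*Vegfa*, the angiogenic growth factor, was called in none of the comparisons with WT, with log2 fold changes of 0.14 in delE6/delE6, -0.48 in Insert ASAY and -0.061 in delE6/+ cells. The collagen prolyl hydroxylase subunits *P4ha1* and *P4ha2* lay between -0.29 and 0.20 in all of them, *Ddit4*, an inhibitor of mTORC1, between 0.03 and 0.37, and *Mxi1*, a MYC antagonist, between -0.47 and -0.17. Over the members that were not called, the log2 fold change ranged from -0.43 to 0.53 in delE6/delE6, from -0.48 to 0.43 in Insert ASAY and from -0.47 to 0.47 in delE6/+ cells.

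**Figure D4:**
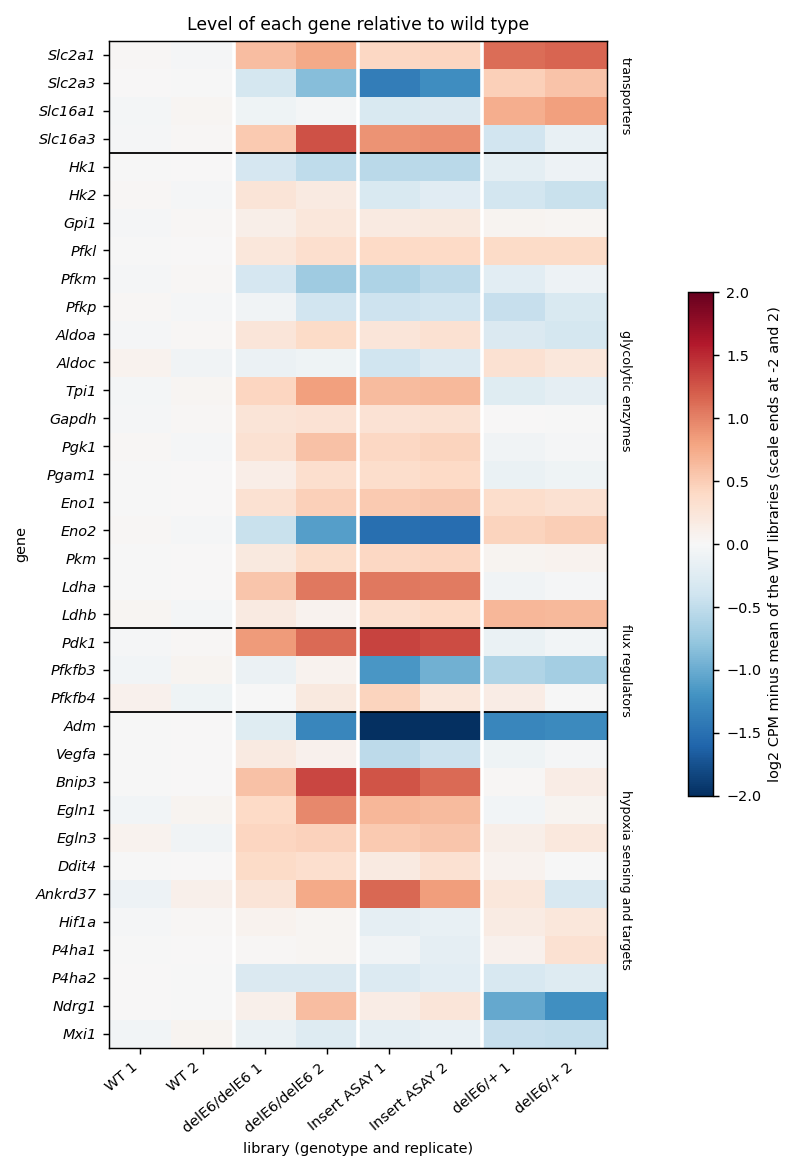
log2 CPM of each gene (rows, grouped by role) in each library (columns) minus the mean of the WT libraries, on a colour scale that ends at -2 and 2. *Adm* in Insert ASAY libraries lies past the end of the scale (log2 fold change of -2.59 in the fit), and *Slc2a3* and *Eno2* are below WT in delE6/delE6 and Insert ASAY and above it in delE6/+ libraries.

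The make-up of related genes was set side by side per kilobase of annotated exon, as a description with no test. *Slc2a1* made up 38.3 to 38.6% of the glucose transporter pair in WT, 55.1 and 65.7% in delE6/delE6, 68.7 and 66.6% in Insert ASAY and 49.1 and 48.4% in delE6/+ libraries, so *Slc2a3* was the larger of the pair in WT and in delE6/+ libraries. With reads not divided by length, *Slc2a3* was the larger in delE6/delE6 libraries too, at 62.7 and 51.9%, so the order there depends on the scale. *Slc16a3* was 18.4 to 18.5% of the monocarboxylate transporter pair in WT, 25.7 and 35.8% in delE6/delE6, 34.2 and 34.3% in Insert ASAY and 9.48 and 10.3% in delE6/+ libraries. *Ldha* was 64.0 and 65.2% of the lactate dehydrogenase pair in WT, 70.3 and 78.2% in delE6/delE6, 75.0 and 74.1% in Insert ASAY and 52.4 and 53.3% in delE6/+ libraries. The share of the A subunit was thus highest where *Ldha* rose and lowest where *Ldhb* did.

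*Pfkm* was the largest phosphofructokinase in WT at 49.5 and 50.0%, and *Pfkl* was the largest in every mutant library, at 46.0 to 54.0% against 37.4 to 37.6% in WT. *Hk2* made up 73.3 to 84.9% of the hexokinase pair over the 8 libraries. *Aldoa* held 98.0 to 99.2% of the aldolase pair and *Eno1* 98.4 to 99.7% of the enolase pair, so the changes of *Aldoc* and *Eno2* touch a minor part of either step. *Pfkfb4* was 9.76 to 11.6% of its pair in WT and 21.3 to 26.6% in Insert ASAY libraries. *Egln1* held 63.3 to 73.4% of the *Egln1* and *Egln3* pair, and *P4ha1* 67.0 to 75.2% of its pair. With reads not divided by length, *Pfkm* was 28.3% of the phosphofructokinase reads in WT and *Pfkl* 42.6%, so which of them is the larger in WT depends on the scale.

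**Figure D5:**
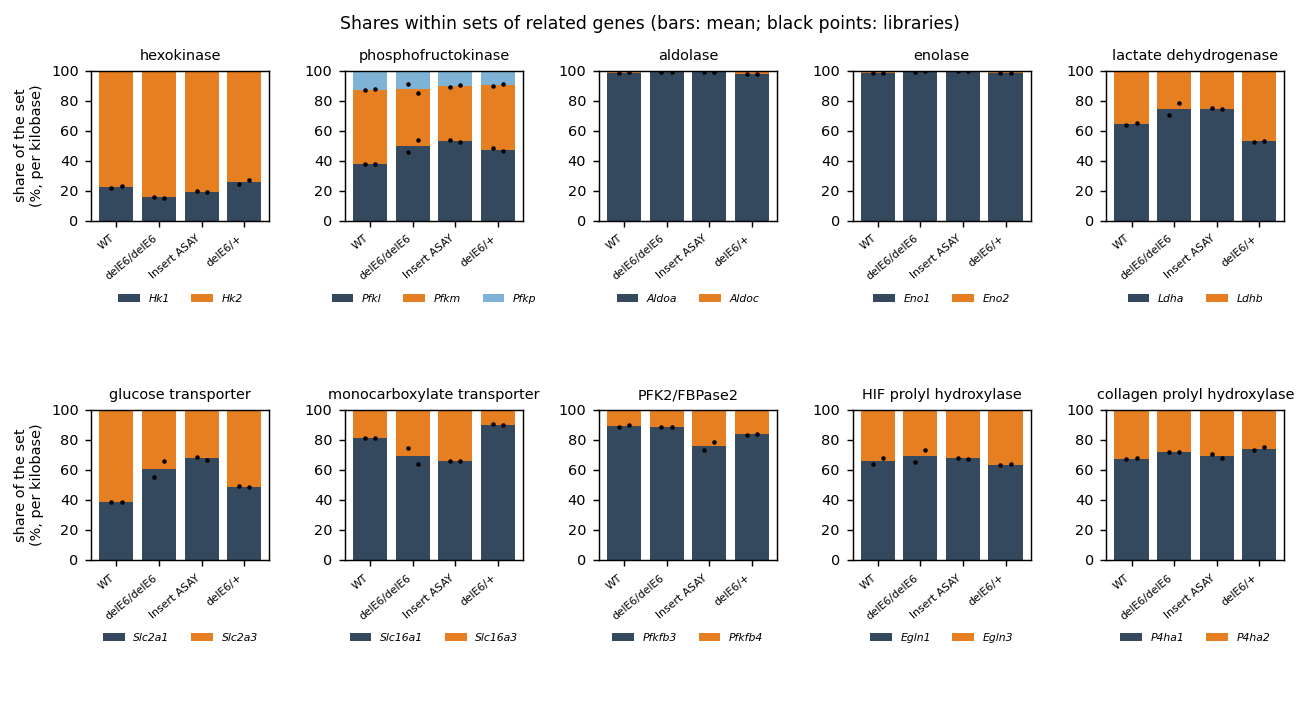
Share of each gene (colour) in 10 sets of related genes, in percent of the reads per kilobase of the set, as the mean of the pair (bars) with the libraries as black points. The *Slc2a1* share is 38.4% in WT and 67.6% in Insert ASAY cells, and the *Ldha* share is 52.8% in delE6/+ and 74.5% in Insert ASAY cells.

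The mutant lines were also compared with each other, in tests that share libraries with those above. Between delE6/+ and delE6/delE6 cells, 4 members were higher and 11 lower in delE6/+, against 22.2% of all tested genes called, 11.2% higher and 11.0% lower. Higher in delE6/+ cells were *Eno2* (log2 1.21), *Slc2a3* (1.11), *Slc16a1* (0.84) and *Ldhb* (0.53). Lower were *Ndrg1* (-1.51), *Slc16a3* (-1.21), *Pdk1* (-1.09), *Bnip3* (-0.93), *Ldha* (-0.87), *Tpi1* (-0.84), *Egln1* (-0.70), *Aldoa* (-0.64), *Hk2* (-0.62), *Pfkfb3* (-0.62) and *Pgk1* (-0.50). Members of the lactate and pyruvate branch (*Ldha*, *Pdk1* and *Slc16a3*) were thus lower, and *Slc16a1* and *Ldhb* higher, in delE6/+ than in delE6/delE6 cells. The number of deleted copies cannot be told apart from the history of the lines.

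Between Insert ASAY and delE6/delE6 cells, no member was higher and 5 were lower in Insert ASAY, against 5.16% of all tested genes called, 2.79% higher and 2.38% lower. The 5 were *Adm* (log2 -1.90), *Pfkfb3* (-1.04), *Eno2* (-0.77), *Slc2a3* (-0.73) and *Vegfa* (-0.61). In the higher direction edgeR gave 6 members an unadjusted p under 0.05, and DESeq2 called none. Of these, 2 passed the adjusted p alone, *Pdk1* (log2 0.33) and *Ldhb* (log2 0.24). That is 5.56% of the members against 5.6% of all tested genes. Without delE6/delE6 replicate 1, fewer members were called, *Slc2a3* and *Eno2* no longer among them, and without replicate 2 more were. The share of all tested genes called moved the same way in both fits. Between Insert ASAY and delE6/+ cells, 9 members were higher and 6 lower in Insert ASAY, against 27.5% of all tested genes called, 14.6% higher and 13.0% lower. Higher were *Pdk1* (log2 1.42), *Ndrg1* (1.31), *Slc16a3* (1.17), *Bnip3* (1.11), *Ldha* (1.10), *Ankrd37* (1.02), *Tpi1* (0.85), *Egln1* (0.64) and *Aldoa* (0.59). Lower were *Eno2* (-1.98), *Slc2a3* (-1.84), *Adm* (-1.30), *Slc16a1* (-1.07), *Slc2a1* (-0.71) and *Aldoc* (-0.61).

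A wider set of 122 tested genes from 6 other lists of the same pathways was read in the same fit. In delE6/delE6 cells, 10 of them rose and 9 fell (15.6%, median log2 -0.032), in Insert ASAY cells 15 rose and 20 fell (28.7%, median -0.11), and in delE6/+ cells 7 rose and 10 fell (13.9%, median -0.029). Of all tested genes, 12.7%, 21.3% and 13.5% were called in these comparisons, so the share in delE6/+ cells was close to that of all genes. Among 47 other hypoxia targets, 8 rose and 4 fell in delE6/delE6, 11 rose and 9 fell in Insert ASAY and 4 rose and 8 fell in delE6/+ cells, which is 25.5%, 42.6% and 25.5% of the list against the same 12.7%, 21.3% and 13.5%. In delE6/delE6 cells the largest changes were those of *Edn1* (log2 1.35), which encodes endothelin, *Loxl2* (1.29), a lysyl oxidase, and *Bhlhe41* (-1.10), a repressor of the circadian clock. In Insert ASAY cells they were those of *Fosl2* (-1.62), an AP-1 subunit, *Bhlhe41* (-1.30) and *Loxl2* (1.12). In delE6/+ cells they were those of *Fosl2* (-1.35), *Ppp1r3c* (1.31), which promotes glycogen synthesis, and *Dusp1* (-1.30), a MAP kinase phosphatase.

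Of 17 HIF pathway factors, *Cited2*, which competes with HIF for its coactivators, rose in delE6/delE6 cells (log2 0.74). In Insert ASAY cells 1 rose and 3 fell, which were *Cited2* (0.92), *Hif3a* (-0.90), *Epas1* (-0.58), the HIF2 alpha subunit, and *Arnt* (-0.65), the partner of the HIF alpha subunits, and in delE6/+ cells *Arnt* rose (0.62). *Arnt* lies on chromosome 3 too. The share of this list called was 5.88% in delE6/delE6, 23.5% in Insert ASAY and 5.88% in delE6/+ cells, near or under that of all tested genes. Among 13 genes from pyruvate to acetyl-CoA, *Pdk4* (-1.78) and *Pdk2* (-0.65) fell in delE6/delE6 cells, *Pdk4* fell (-1.34) and *Pdhx* rose (0.60) in Insert ASAY cells, and *Pdp1*, which reverses the action of the kinases, fell in delE6/+ cells (-0.85). Of this list 15.4%, 15.4% and 7.69% were called in the same order, again near or under the share of all tested genes. The *Pdk* genes thus did not share a direction, since *Pdk1* rose where *Pdk4* fell.

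In the 25 other glycolysis genes, 1 rose and 2 fell in delE6/delE6, 1 rose and 3 fell in Insert ASAY and 2 rose in delE6/+ cells, or 12%, 16% and 8% of the list, each under the share of all tested genes. *Slc2a6*, a lysosomal hexose transporter, rose in delE6/delE6 (log2 0.90) and delE6/+ cells (1.11), *Pgam2*, the muscle mutase, fell in delE6/delE6 cells (-1.13), as did *Ldhd* (-1.43), at a mean of 1.41 CPM in WT and 0.520 in delE6/delE6 cells, and *Pklr* rose in delE6/+ cells (0.56). *Ldhd* (-0.81), *Eno4* (0.78) and *Pgm2* (-0.54) changed in Insert ASAY cells. In the pentose phosphate pathway, *Prps1* fell in delE6/delE6 cells (-0.58), and *Prps1* (-0.67) and *Rpia* (-0.64) fell in Insert ASAY cells. None of the 12 genes was called in delE6/+ cells, by edgeR or DESeq2. There 1 higher and 4 lower genes passed the adjusted p alone in edgeR, 41.7% of the list against 31.6% of all tested genes. The shares of this list called were 8.33%, 16.7% and 0% in delE6/delE6, Insert ASAY and delE6/+ cells, each under that of all tested genes. Of 8 gluconeogenesis genes, none was called in delE6/delE6 cells, by edgeR or DESeq2. There 2 higher and 2 lower genes passed the adjusted p alone in edgeR, 50% of the list against 35.4% of all tested genes. An unadjusted p under 0.05 was given to 2 higher and 4 lower genes. *Fbp2* rose (0.92) and *Got1* (-0.68) and *Pcx* (-0.58) fell in Insert ASAY cells, and *Fbp2* fell in delE6/+ cells (-1.11) from a mean of 0.936 CPM in WT. For the gluconeogenesis list the shares called were 0%, 37.5% and 12.5% in that order, against 12.7%, 21.3% and 13.5% of all tested genes. In these comparisons *Ldhd* in delE6/delE6, *Fbp2* in delE6/+ and *Epas1* were named after their values were seen.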

How the data were processed

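PolyA RNA was sequenced with a directional kit. Per the submitters' processing notes, the authors mapped the reads to mm10 with STAR 2.7.2a, and they deposited its raw read counts per gene, with no normalization or filter, and the counts of the strand that the kit reads were used here. Reads on genes were 24618587 to 28445952 per library. The other strand column held 4.11 to 4.78% of the reads of both, and reads that match several places are not in these counts. Counts were analysed with edgeR 4.0.16 in R 4.3.3. Genes were kept by filterByExpr at its settings of 10 reads for a library and 15 reads in all, libraries were scaled by TMM, and a single quasi-likelihood model held all 8 libraries with a term for each genotype. P-values were adjusted by Benjamini-Hochberg over 17049 genes. CPM were computed on TMM-scaled totals, and RPKM are CPM per kilobase of annotated exon. The call thresholds follow the study, which used DESeq2 (1.40.2 in the same notes), and DESeq2 1.42.0 was an alternative here. The steps were tested on simulated counts. Samples were grouped by their labels. The members and the lists were chosen with earlier results of these data known. Members past both thresholds were named with their values in every library, at most 8 per comparison with full statistics, by the smallest adjusted p. Pairs and sets of related enzymes were named whatever their values. Of the other lists, at most 3 genes per comparison were named, called genes with the largest fold change whose mean level reached 1 CPM. Symbols matched 48058 of 48440 identifiers in GENCODE M21. With 2 libraries per group, p-values rest on the spread between these libraries, estimated for each gene over the 4 genotypes together. The delE6/delE6 clones varied more than the other pairs, so p-values for that line draw in part on the smaller spread of the others.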

Additional observations from a re-analysis of the deposited data

Results flagged for a closer look

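*Slc2a3* moved in opposite directions against WT in different lines, and the lines differed in a test of the difference itself. Between delE6/+ and delE6/delE6 cells its log2 difference was 1.11 (edgeR quasi-likelihood test, adjusted p = 6.05e-06), where the gene had risen by 0.53 in delE6/+ cells and fallen, at -0.58, in delE6/delE6 cells. Between Insert ASAY and delE6/+ cells its log2 difference was -1.84 (adjusted p = 1.17e-07), with -1.31 against WT in Insert ASAY cells. In both comparisons the libraries of the groups did not overlap. Both delE6/+ libraries lay above both WT libraries, and both delE6/delE6 libraries lay below them. The calls against WT in delE6/+ and delE6/delE6 cells depend on 1 library each. The rise was not called without delE6/+ replicate 2 (log2 0.48, under the threshold of 0.5), nor the fall without delE6/delE6 replicate 2 (log2 -0.35). The differences between the lines were called with any 1 library left out.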

How the results depend on the processing

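The counts of called members in the comparisons of delE6/delE6, delE6/+ and Insert ASAY cells with WT (11, 7 and 15) and of delE6/+ with delE6/delE6, Insert ASAY with delE6/delE6 and Insert ASAY with delE6/+ cells (15, 5 and 15) stayed within 1.5 times of these values with DESeq2, with DESeq2 size factors, with no filter or a stricter filter on low counts, with unstranded counts and in fits of only the 2 groups compared. Without the fold threshold they were 25, 18, 32, 28, 11 and 32, and the counts of other pathway genes against WT were 62, 45 and 77 in place of 19, 17 and 35. The shares of all tested genes that passed without it were 35.4%, 31.6%, 47.3%, 47.1%, 15.4% and 52.9% in the same order. With a TREAT test against a log2 fold change of 0.5, 2 members were called in delE6/delE6, 8 in Insert ASAY and 2 between these lines, and 7, 6 and 12 other pathway genes in delE6/delE6, delE6/+ and Insert ASAY cells. That test called 1.57%, 4.55% and 7.13% of all tested genes in delE6/delE6, delE6/+ and Insert ASAY cells against WT. Between Insert ASAY and delE6/delE6 cells it called 0.786%. TREAT asks for a change shown to be past 0.5 and so calls fewer genes by construction. Leaving out each library in turn gave 5 to 15 members and 12 to 34 other pathway genes in delE6/delE6 cells against WT and 3 to 8 members between Insert ASAY and delE6/delE6 cells, with both ends set by leaving out one or the other delE6/delE6 clone. The remaining counts stayed within 1.5 times when any library was left out. No log2 fold change of a called member turned its sign under any alternative.

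Replicate numbers did not pair the samples: the correlation of same-numbered libraries' deviations from their group means ran from -0.04 to 0.05 between groups. A fit with the replicate number as a replicate block called 11, 7, 15, 15, 5 and 15 members and changed no call of a member. Depth limits *Adm*, *Ankrd37* and *Pfkfb4* most, the last of which was at 3.76 to 5.43 CPM, and 2 libraries per group limit every comparison.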
